A study of Mus musculus with 6 samples.

Results

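Cadherins are membrane proteins that hold neighbouring cells together through calcium-dependent contacts, and protocadherins are their relatives outside the classical family. The 31 genes described here are those whose symbol is Cdh or Pcdh followed by a number only, leaving out Cdh15, among 18193 genes that the arrays' annotation names through a probe set with exactly 1 symbol. Each gene stands for 1 probe set, that with the highest mean over the 6 arrays. The RNA came from mouse sarcoma cells of strain C57BL6/J grown in culture to confluence. In 3 samples the cells were heterozygous for Dicer, the enzyme that makes mature microRNAs out of their precursors, and in 3 samples they were null for it. No group carried both Dicer copies, the labels do not say how or when the gene was lost, and the design text speaks of lines while the titles number replicates. Whether each sample was a separate line or culture is thus unclear, so a p-value here speaks only of the spread among these 6 samples, which may be technical.

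In classical cadherins the outer part binds the same cadherin on the next cell, and the inner tail binds catenins, which link it to actin. Mesenchymal cells such as fibroblasts typically carry N-cadherin (Cdh2) and OB-cadherin (Cdh11), epithelial cells E-cadherin (Cdh1) and P-cadherin (Cdh3), and endothelial cells VE-cadherin (Cdh5). T-cadherin (Cdh13) is held by a lipid anchor and has no inner tail. The delta protocadherins, among them Pcdh7, Pcdh9, Pcdh18 and Pcdh19, are best known from the developing nervous system.

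The cadherins that differed most between the samples were Pcdh20, above background on all 3 heterozygous arrays and on no null array, Cdh11, above background on 2 heterozygous arrays and on no null array, Cdh13, brighter on heterozygous arrays, and Cdh3, brighter on null arrays. None of these differences passed the test over all probe sets, and each of these genes spread widely within 1 of the groups. Cdh2, Pcdh18 and Pcdh19 were bright on all 6 arrays. Of the 31 genes 9 had a mean of at least 3 on the log2 scale and were tested (for all named genes the share was 62.8%), and 22 lay below that, with means from 1.15 up to just under 3, and were not. With limma (moderated test, p-values adjusted by Benjamini-Hochberg, threshold 0.05), 0 of the 9 were called in either direction, where 3.46% of 11425 tested genes were called. At an unadjusted p under 0.05 there were 3 of the 9, Cdh3 higher and Cdh13 and Pcdh20 lower in null arrays, where 24.0% of tested genes reached it (10.5% higher and 13.5% lower). Pcdh20 had a null mean under 3 and reached the test only through the heterozygous arrays, so its place in this count carries no weight as support. With ordinary t statistics in place of moderated ones 0 were called and 2 had an unadjusted p under 0.05. That setting called 0 of all 24385 tested probe sets, so its count says nothing particular about these genes. The minimum of 3 sits just above background: 78 of the 81 probe sets for receptors of smell, which such cells should not express, had a lower mean.

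**Figure D1:**
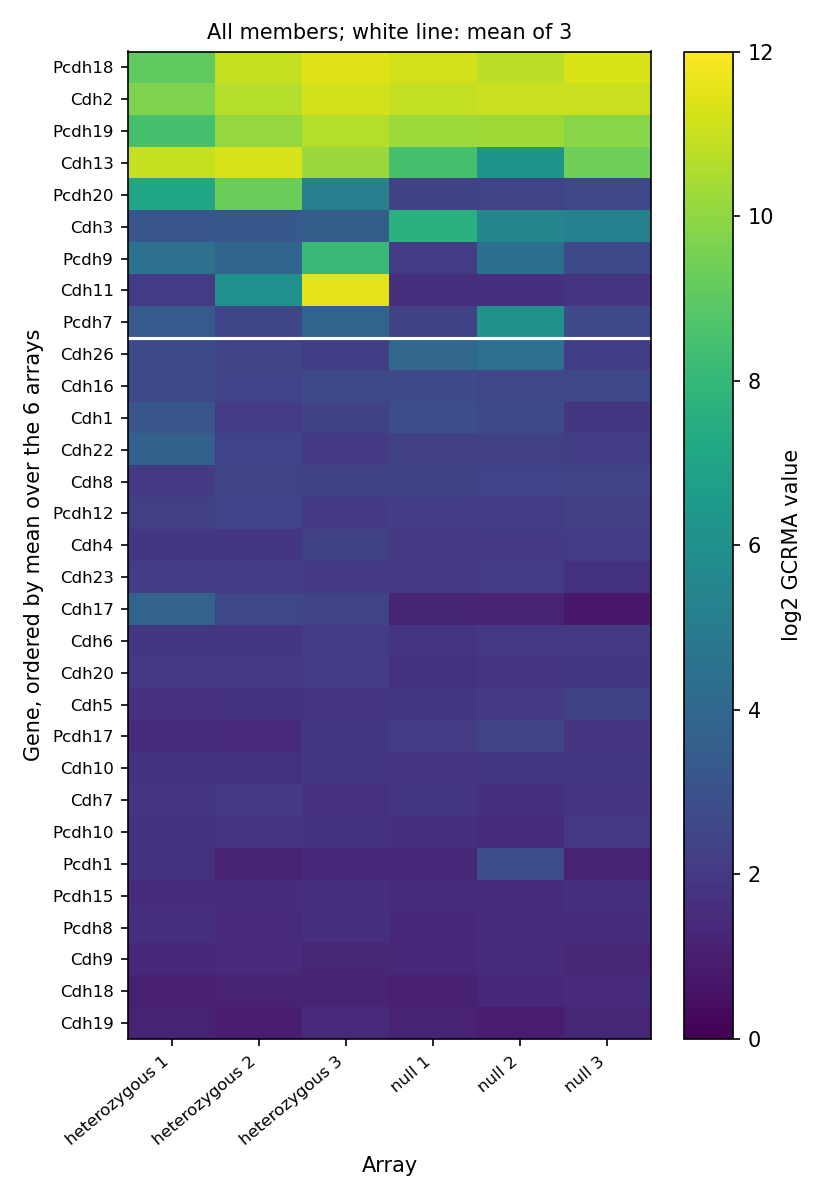
Log2 GCRMA value (colour) of all 31 members (rows, by mean over the 6 arrays) on the 3 heterozygous and 3 null arrays (columns). Above the white line are the 9 members with a mean of at least 3, and Pcdh18, Cdh2 and Pcdh19 are bright in every column.

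The array medians lay between 3.32 and 3.43 on the log2 scale. The samples carried mesenchymal markers: vimentin (Vim), collagens Col1a1, Col1a2 and Col3a1, fibronectin (Fn1), Pdgfrb and S100a4 were between 9.50 and 13.84 on every array, while Thy1 lay under 3 on all but heterozygous array 1 (4.29). The summed log2 value of these 8 markers was 90.74 to 91.13 on heterozygous and 85.43 to 88.72 on null arrays. None of the 8 endothelial markers had a mean of 3. Of 8 epithelial markers 3 had such a mean, Krt19, Epcam and Krt18, the last read at 9.02 on heterozygous array 1 and under 3 on the other arrays. The summed log2 value of the epithelial list was 19.42 to 32.16 on heterozygous and 21.49 to 27.65 on null arrays. Of 8 neural markers 3 had a mean of at least 3: Tubb3, Map2 and Ncam1, the last at 11.50 to 12.38 on every array. Of 7 leukocyte markers on the array 1, Cd68, had a mean of 3, and of 7 skeletal muscle markers 1, Acta1. No marker of any list was called by limma. The 2 tested probe sets of Dicer1 differed by 0.14 and 0.27 (limma adjusted p = 0.693 and 0.573), and whether either lies in the deleted part is not given in the sources used here.

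Sequence before the start site could be shown for 19 of the 31 genes, from RefSeq's GRCm38.p6. The sequences below are the 250 bases upstream of 4 protocadherins, chosen because Pcdh20 and Pcdh9 differ between samples and have no other protein-coding gene between them in the gene table, and because Pcdh18 and Pcdh19 were bright on all arrays. They lie on the minus strand at chr14:88471397-88471646 (Pcdh20), chr14:93890680-93890929 (Pcdh9), chr3:49757317-49757566 (Pcdh18) and chrX:133688994-133689243 (Pcdh19). Capitals mark CCAAT or, on the other strand, ATTGG, the letters of the CCAAT box of many promoters, a motif chosen after these sequences were seen.
Pcdh20: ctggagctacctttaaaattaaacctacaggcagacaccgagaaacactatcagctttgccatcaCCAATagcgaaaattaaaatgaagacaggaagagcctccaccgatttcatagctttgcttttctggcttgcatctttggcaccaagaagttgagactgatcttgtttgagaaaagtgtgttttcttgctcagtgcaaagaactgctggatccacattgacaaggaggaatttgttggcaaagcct
Pcdh9: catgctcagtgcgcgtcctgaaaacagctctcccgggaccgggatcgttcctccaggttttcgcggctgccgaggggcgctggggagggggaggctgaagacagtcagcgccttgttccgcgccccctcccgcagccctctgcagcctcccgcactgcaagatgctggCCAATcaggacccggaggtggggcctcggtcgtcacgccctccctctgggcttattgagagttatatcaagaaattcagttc
Pcdh18: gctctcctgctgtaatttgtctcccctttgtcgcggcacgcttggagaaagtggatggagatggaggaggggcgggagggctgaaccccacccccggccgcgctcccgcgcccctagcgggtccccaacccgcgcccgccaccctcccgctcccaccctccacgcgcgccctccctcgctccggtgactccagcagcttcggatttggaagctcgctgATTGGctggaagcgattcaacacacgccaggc
Pcdh19: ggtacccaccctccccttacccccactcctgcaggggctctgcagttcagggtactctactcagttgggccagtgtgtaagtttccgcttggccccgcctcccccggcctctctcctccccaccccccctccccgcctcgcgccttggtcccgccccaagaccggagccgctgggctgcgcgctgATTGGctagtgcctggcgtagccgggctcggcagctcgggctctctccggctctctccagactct
Each of the 4 holds these letters once. They occur in 14 of the 19 members' windows and in 34.5% of the windows of 27025 genes. The base composition differed: G and C made up 42.4% of the window of Pcdh20, against 63.6% for Pcdh9, 68.0% for Pcdh18 and 69.2% for Pcdh19. CAGGTG or its reverse CACCTG, the letters bound by the Snai and Zeb repressors, occur in none of these 4 windows, in 2 of the 19 and in 17.1% of all. A match is only a match of letters, and the arrays measured no binding.

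Among the classical cadherins of type I, Cdh2 was present throughout. Its values were 9.70, 10.68 and 11.19 on heterozygous arrays 1, 2 and 3 and 10.90, 11.06 and 11.05 on null arrays. The null arrays lay inside the range of the heterozygous ones, with heterozygous array 1 the lowest. The mean was 10.52 ± 0.76 against 11.00 ± 0.09 (SD, n = 3), a log2 difference of 0.48 with a 95% interval of -0.44 to 1.40 (limma adjusted p = 0.493). The second probe set gave 0.40 (95% interval -0.51 to 1.31), so the intervals of both reach past a 2-fold higher level in null arrays. The difference of the first was 0.068 without heterozygous replicate 1 and 0.81 without heterozygous replicate 3.

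Cdh3 was near background on heterozygous arrays, at 3.23, 3.30 and 3.52, and read at 7.68, 5.53 and 5.26 on null arrays. The 2 groups did not overlap, and null array 1 stood above the other null arrays. The mean was 3.35 ± 0.15 against 6.16 ± 1.33 (SD, n = 3), a 7.0-fold difference, or 2.81 on the log2 scale with a 95% interval of 1.28 to 4.34 (limma adjusted p = 0.0691). Without null replicate 1 the difference was 2.05 and Cdh3 was called (limma adjusted p = 0.0390), and without any other array it was not (2.75 to 3.26, limma adjusted p from 0.0970 to 0.163). The second probe set of Cdh3 lay at 1.80 to 1.83 on heterozygous and 2.31 to 2.73 on null arrays, under the minimum. Among the epithelial markers, Krt18 was at 2.0 to 2.68 on null arrays, and Epcam was at 2.53 to 3.55 on heterozygous arrays and at 3.10, 5.21 and 3.26 on null ones. Krt19 was at 8.92, 7.07 and 4.75 on heterozygous and 8.50, 8.15 and 6.49 on null arrays. The sums of the epithelial list overlapped between the groups, and the part of such cells in the values of Cdh3 was not tested.

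Cdh1, the epithelial E-cadherin, is the next protein-coding gene after Cdh3 in the gene table, and it was not tested. Its values were 3.20, 2.11 and 2.38 on heterozygous and 2.87, 2.67 and 1.93 on null arrays, so only heterozygous array 1 passed 3 and the groups overlapped. Cdh4, the retinal cadherin, stayed at 1.90 to 2.35.

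The type II cadherin Cdh11 showed the widest spread of all. It was read at 2.07, 6.03 and 11.53 on heterozygous arrays 1, 2 and 3, and at 1.64, 1.65 and 1.84 on null arrays. All 3 null arrays and heterozygous array 1 were thus at background, and heterozygous arrays 2 and 3 stood far apart from them and from each other. The span of 9.46 log2 units over the heterozygous arrays ranked 1 among the 11425 tested genes, while the span over the null arrays was 0.20. Because the null side lies below 3, folds are bounds against that level: heterozygous array 2 was at least 8.17-fold and array 3 at least 370-fold brighter. The mean difference of -4.83 had a 95% interval of -10.15 to 0.49 and was not called (limma adjusted p = 0.250), and it was -7.07 without heterozygous replicate 1 and -2.34 without heterozygous replicate 3. The second probe set repeated the order of the heterozygous arrays, with 2.09, 4.05 and 10.39. It lay at 1.80 to 2.18 on null arrays, so its groups overlapped. The summed mesenchymal markers were lower on all null arrays. Thy1 was then left out after its values were seen. The sums became 86.75, 88.98 and 89.68 on heterozygous and 86.95, 83.81 and 84.88 on null arrays. The groups then overlapped only through null array 1, just above heterozygous array 1. As Thy1 was picked by its values, this overlap carries no weight. S100a4 was at 12.33, 12.81 and 13.03 on heterozygous and 11.36, 10.97 and 11.73 on null arrays, without overlap (limma adjusted p = 0.0570). Pdgfrb and Col1a1 differed by -1.03 and -0.78, Fn1 and Vim by -0.17 and -0.07, and Col1a2 and Col3a1 by 0.01 and 0.17. The part of these markers in the result of Cdh11 was not tested. In RNA from whole cultures, fewer cells with a transcript and less of it per cell cannot be told apart.

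The other type II cadherins, several of them neuronal, were under 3 on nearly every array. Cdh6, Cdh7, Cdh8, Cdh9, Cdh10, Cdh18, Cdh19 and Cdh20 never reached that level, nor did the endothelial Cdh5. Cdh22 passed it on heterozygous array 1 alone, at 3.70. How little such values can be read shows in Cdh5, whose chosen probe set was at 1.72 to 1.81 on heterozygous and 1.94 to 2.31 on null arrays. Its other probe set ran the opposite way, at 1.92 to 2.15 and 1.78 to 1.91. The endothelial markers were low too, with summed log2 values of 15.39 to 16.12 and 16.44 to 17.12, and 7 of the 8 never reached 3.

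T-cadherin, Cdh13, was brighter on every heterozygous array. It was read at 10.95, 11.25 and 10.19 there and at 8.52, 6.21 and 9.37 on null arrays 1, 2 and 3, with no overlap and with null array 2 the lowest. The mean was 10.80 ± 0.55 against 8.03 ± 1.64 (SD, n = 3), a log2 difference of -2.76 (95% interval -4.72 to -0.81) or 6.79-fold (limma adjusted p = 0.116). It was -1.85 without null replicate 2 and -3.43 without null replicate 3. Cdh13 has 2 more tested probe sets, and they gave -2.73 and -2.11 (limma adjusted p = 0.0850 and 0.0895), also without overlap. The fourth lay at background. The span over null arrays, 3.16 log2 units, was matched or passed by 1.36% of tested genes, and that over heterozygous arrays, 1.06, by 25.6%.

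The more distant cadherins were mostly at background. Cdh17, the liver-intestine cadherin, was at 3.82, 2.59 and 2.45 on heterozygous and 1.25, 1.17 and 0.82 on null arrays, without overlap, but its mean of 2.02 kept it out of the test. Cdh26 missed the minimum narrowly, with 2.63, 2.46 and 2.23 on heterozygous and 3.97, 4.46 and 2.24 on null arrays. With a minimum of 2 neither was called (limma adjusted p = 0.0684 and 0.326). Cdh16 of kidney and Cdh23, which with Pcdh15 forms the tip links of hair cells in the inner ear, stayed under 3, as did Pcdh15.

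**Figure D2:**
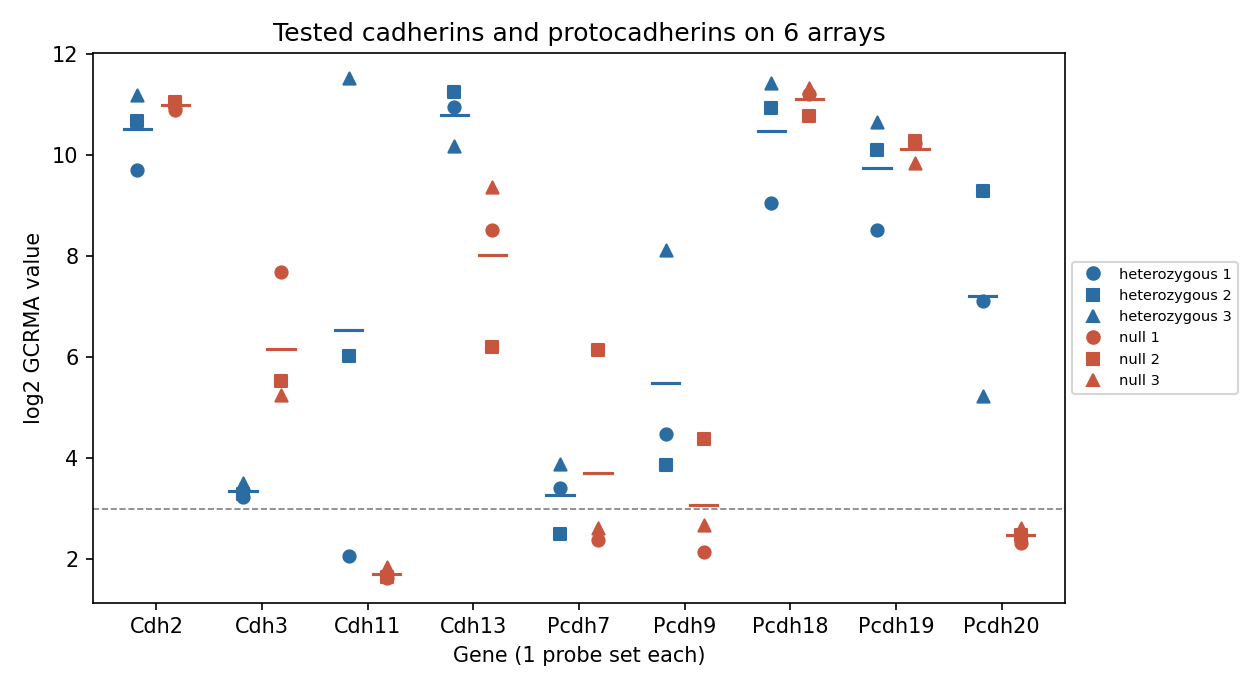
Log2 GCRMA value (vertical axis) of the 9 tested members on each array, heterozygous in blue and null in red, with the marker shape giving the replicate number, short bars the group means and the dashed line the minimum of 3. Cdh11 runs from 2.07 to 11.53 within the heterozygous group, and Pcdh20 lies at 5.24 or above there and at 2.62 or below in the null group.

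Among the protocadherins, Pcdh20 had the largest log2 difference, -4.74. Its values were 7.12, 9.30 and 5.24 on heterozygous arrays and 2.33, 2.48 and 2.62 on null arrays. The groups did not overlap, and heterozygous array 2 was the highest. As the null side lies below 3, the heterozygous mean of 7.22 ± 2.03 (SD, n = 3) is at least 18.6-fold brighter, and single arrays at least 17.4-fold, 78.8-fold and 4.72-fold. The 95% interval of the difference was -7.04 to -2.44, and the call was narrowly missed (limma adjusted p = 0.0556). Without heterozygous replicate 3 it was called, at -5.73 (limma adjusted p = 0.0206), and with a mean-dependent prior variance it was called too (0.0389). It was not called without any other array (differences of -4.81 to -3.70, limma adjusted p from 0.0733 to 0.169) or with the replicate block (0.0940). By ordinary t statistics its adjusted p was 0.173, in a setting that called 0 of all probe sets. The summed neural markers were 35.54 to 39.86 on heterozygous and 33.74 to 35.24 on null arrays. Without Map2, a gene chosen after its values were seen, they were 28.79 to 30.78 and 28.93 to 32.35 and overlapped. Given that choice, the overlap carries no weight. Map2 itself was at 5.98, 9.08 and 6.79 on heterozygous and 2.38, 6.31 and 1.39 on null arrays (limma adjusted p = 0.173). Like Pcdh20, it was highest on heterozygous array 2, but its groups overlapped. The part of neural cells in the result of Pcdh20 was not tested. The second probe set of Pcdh20, with a mean just under the minimum, gave 3.74, 5.60 and 3.20 against 1.70, 1.86 and 1.76.

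Pcdh9, a delta-1 protocadherin and the neighbour of Pcdh20 in the gene table, was read at 4.48, 3.87 and 8.12 on heterozygous and 2.14, 4.38 and 2.69 on null arrays. The groups overlapped, since null array 2 lay above heterozygous array 2. The log2 difference was -2.42 (95% interval -5.32 to 0.48, limma adjusted p = 0.283). Without heterozygous replicate 3, on which Cdh11 was also highest, it was -1.11. A second tested probe set gave 4.02, 4.11 and 8.63 against 1.89, 4.40 and 2.07, the same order of arrays within the null group.

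Pcdh7, also of the delta-1 group, stood out on null array 2. It was read at 3.42, 2.50 and 3.89 on heterozygous and 2.38, 6.15 and 2.63 on null arrays, so 5 of the 6 values lay under 4. The difference of 0.45 (95% interval -2.06 to 2.96, limma adjusted p = 0.830) was -0.77 without null replicate 2. The other tested probe set was also highest on that array, at 6.68.

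The delta-2 protocadherins Pcdh18 and Pcdh19 were bright on all arrays. Pcdh18 was at 9.05, 10.94 and 11.43 on heterozygous and 11.21, 10.78 and 11.33 on null arrays, a difference of 0.63 (95% interval -0.85 to 2.11, limma adjusted p = 0.578). Pcdh19, known from an inherited epilepsy, was at 8.52, 10.10 and 10.65 and at 10.25, 10.28 and 9.85, a difference of 0.37 (95% interval -0.94 to 1.68, limma adjusted p = 0.724). In both genes, as in Cdh2, heterozygous array 1 was the lowest of the 6, and without it the differences were -0.08 and -0.25. The other 2 probe sets of Pcdh18 gave -0.15 and 0.04, and those of Pcdh19 0.56 and 0.57. The remaining protocadherins, Pcdh1, Pcdh8, Pcdh10, Pcdh12, Pcdh15 and Pcdh17, were under 3 on every array, Pcdh1 coming nearest with 2.85 on null array 2.

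**Figure D3:**
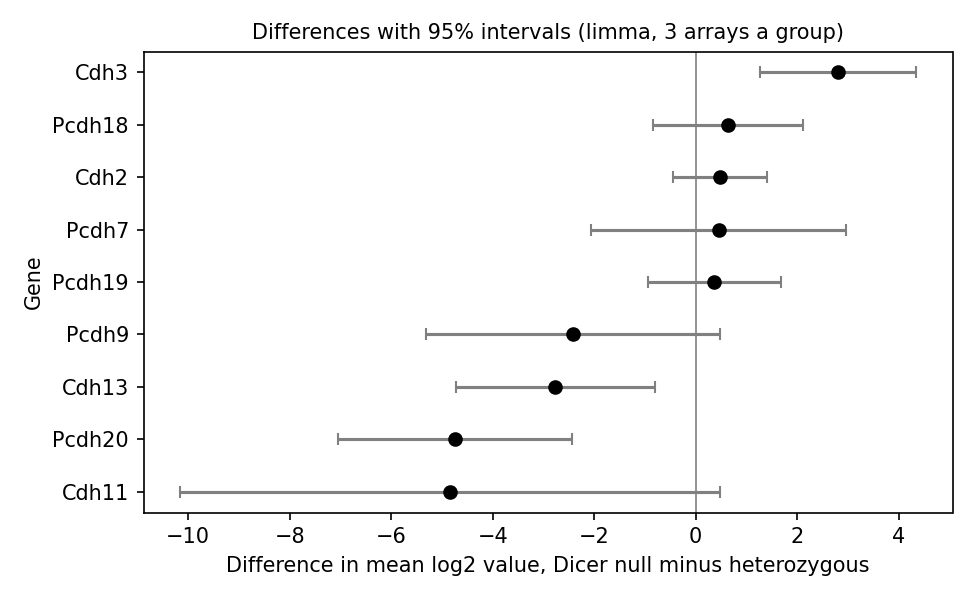
Difference in mean log2 value, Dicer null minus heterozygous (horizontal axis), for the 9 tested members, with 95% intervals from limma's moderated test on 3 arrays a group. The interval lies on one side of 0 for Cdh3 (1.28 to 4.34), Cdh13 and Pcdh20, and none passed after adjustment over all probe sets.

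Over the 9 tested members the median log2 difference was 0.37, beside -0.01 over all tested genes, with 5 above and 4 below 0. That median is the value of Pcdh19. Without heterozygous replicate 1 Pcdh19 was at -0.25, Pcdh18 at -0.08 and Cdh2 at 0.07, so the median and the count above 0 depend on that array. The groups did not overlap in 4 of the 9, 1 higher and 3 lower in null arrays, where 32.2% of tested genes did not overlap (14.9% higher and 17.3% lower). Over all 31, dim ones included, it was 7 (2 higher, 5 lower), where the share of all named genes was 26.0% (12.4% higher and 13.6% lower). Cdh11 entered both counts through values at background, 2.07 on heterozygous array 1 and at most 1.84 on null arrays. Its second probe set overlapped. Differences of at least 1 log2 unit occurred in 5 of the 9 and in 15.3% of tested genes. All 5 were also at least 2 log2 units, as were 5.04% of tested genes. Cdh11 and Pcdh20 had a null mean under 3 and reached the test only through the heterozygous arrays, so they had to differ, and these counts carry no weight as support.

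The spread within a group was wide for most tested members. In the heterozygous group 5 of 9, Cdh11, Pcdh9, Pcdh20, Pcdh18 and Pcdh19, spanned more than 1.78 log2 units, the 90th percentile of tested genes. In the null group 4 of 9, Pcdh7, Cdh13, Cdh3 and Pcdh9, spanned more than that group's 90th percentile, 1.20. The median span of the 9 was 2.13 and 0.55, beside 0.61 and 0.44 over all tested genes. A wide span was not particular to them: over the 9 tested clustered protocadherins, described below, the medians were 2.58 and 1.66. Cdh11 and Pcdh20 reached the test only through the heterozygous arrays, so their spans there carry no weight as support. Pcdh7 owed its mean of at least 3 to null array 2, at 6.15, so its span in the null group carries none either. The highest array was not always the same: heterozygous array 3 for Cdh11, Cdh2, Pcdh9, Pcdh18 and Pcdh19, heterozygous array 2 for Cdh13 and Pcdh20, null array 1 for Cdh3 and null array 2 for Pcdh7. The number of members at 3 or more was 11, 8 and 9 on heterozygous arrays and 6, 8 and 5 on null arrays, with 5 of them, Cdh2, Cdh3, Cdh13, Pcdh18 and Pcdh19, on all 6.

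**Figure D4:**
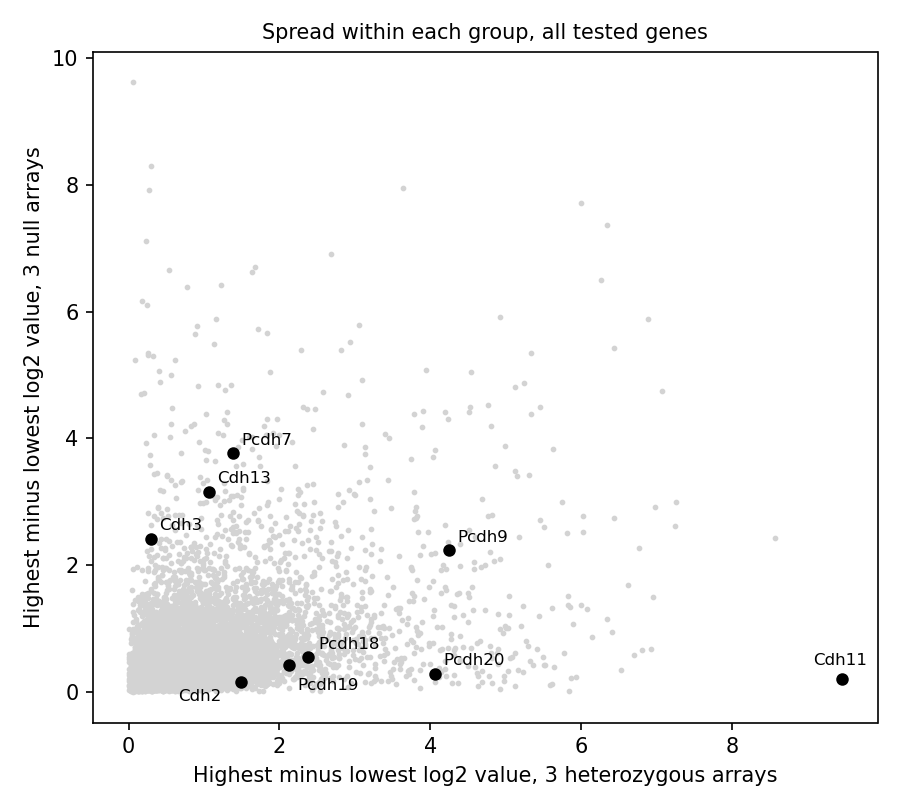
Highest minus lowest log2 value over the 3 heterozygous arrays (horizontal) and over the 3 null arrays (vertical) for the 11425 tested genes (grey) and the 9 tested members (black). Cdh11 is the farthest point to the right, at 9.46, while Cdh3, Cdh13 and Pcdh7 spread mainly within the null group.

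The catenins and plakophilins carry cadherin adhesion inside the cell. Of 10 tested catenins, plakophilins and partners 0 were called by limma, and the median difference was -0.04. An unadjusted p under 0.05 was reached by 1 of them, where 24.0% of all tested genes reached it. That one was Ctnnbip1, which blocks beta-catenin from its transcription factors, at 7.11, 7.33 and 7.03 on heterozygous and 6.62, 6.44 and 6.09 on null arrays (limma adjusted p = 0.0928). Pkp4, a plakophilin, had the next smallest p, with a difference of 0.29. Of the catenins that bind classical cadherins directly or link them to actin, named here for that role after their values were seen, beta-catenin (Ctnnb1) differed by -0.09 (95% interval -0.49 to 0.31) and p120 (Ctnnd1) by 0.32 (-0.28 to 0.92). Plakoglobin (Jup) was at 8.19, 6.22 and 7.85 on heterozygous and 8.07, 9.36 and 8.24 on null arrays, a difference of 1.14 whose interval of -0.32 to 2.59 takes in a 2-fold difference (limma adjusted p = 0.311). The probe sets of alpha-catenin (Ctnna1) disagreed: the brightest gave -0.05 (-0.42 to 0.31), and another gave -0.88 (-1.52 to -0.24), without overlap (limma adjusted p = 0.120).

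In the traffic and junction list 1 enzyme passed the test. Mgat3, which adds the bisecting sugar to N-glycans, those of E-cadherin among them, was at 7.32, 7.13 and 6.51 on heterozygous and 8.26, 9.15 and 9.27 on null arrays. The groups did not overlap, and the difference of 1.91 (SE 0.35) passed narrowly (limma adjusted p = 0.0480). The call was lost without any 1 of the 6 arrays (differences of 1.67 to 2.22, limma adjusted p of 0.0554 to 0.159). Those fits called 0.185% to 3.51% of all probe sets, against 3.10% with all arrays. The call was also lost with the replicate number as a block (limma adjusted p = 0.104), which called 0.476% of probe sets. For the mean of its probe sets it was lost too (0.999, limma adjusted p = 0.0698). It held in 8 of 20 alternatives. It was the single call of 20 tested genes in that list, whose median was 0.09, and higher calls made up 1.45% of tested genes. No other list had a call by limma, although some of their genes had an unadjusted p under 0.05: 1 of 3 desmosomal genes, 2 of 8 large atypical cadherins, 2 of 5 nectins and relatives, 2 of 9 transcriptional repressors, 4 of 12 proteases and 0 of 9 clustered protocadherins. Their median differences were 1.72, 0.01, 0.64, -0.05, 0.06 and 0.12. In the traffic list 2 genes were higher and 1 lower in null arrays at an unadjusted p under 0.05. Of all tested genes 24.0% reached that p.

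Among these genes without a call, desmoplakin (Dsp), which anchors desmosomes to keratin, was at 7.43, 3.07 and 1.92 on heterozygous and 8.62, 8.76 and 9.04 on null arrays (limma adjusted p = 0.114), and the desmosomal cadherin Dsc2 was highest on null array 2, at 6.57. Cadm1, an adhesion molecule of the immunoglobulin family, was under 3 on all heterozygous arrays and on null array 3 (2.59), but at 9.15 and 10.89 on null arrays 1 and 2 (limma adjusted p = 0.185). Nectin3 differed by 0.64 (limma adjusted p = 0.161). The giant cadherins Dchs1 and Fat4, which bind each other, differed by 1.33 and -1.69 (limma adjusted p = 0.188 and 0.213), with overlap in both.

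The repressors of classical cadherins were at 3 or more on all arrays in 9 of 11 cases, while Gsc and Snai3 stayed under 3. The smallest p-values were those of Zeb2, at 10.08, 10.63 and 10.14 on heterozygous and 10.82, 11.14 and 10.83 on null arrays (limma adjusted p = 0.147), and of Twist2, with a difference of 0.49. Of the proteases, the presenilin Psen2 differed by -0.94 and Adam15 by -0.74 (limma adjusted p = 0.0840 and 0.175). Of 23 clustered protocadherins 9 were tested. Pcdhb16 ran from 3.60 to 7.38 on heterozygous and from 5.12 to 7.85 on null arrays, and Pcdhb14 differed by -0.76 (limma adjusted p = 0.291). These genes resemble each other closely, so that a probe set may read more than 1 of them.

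**Figure D5:**
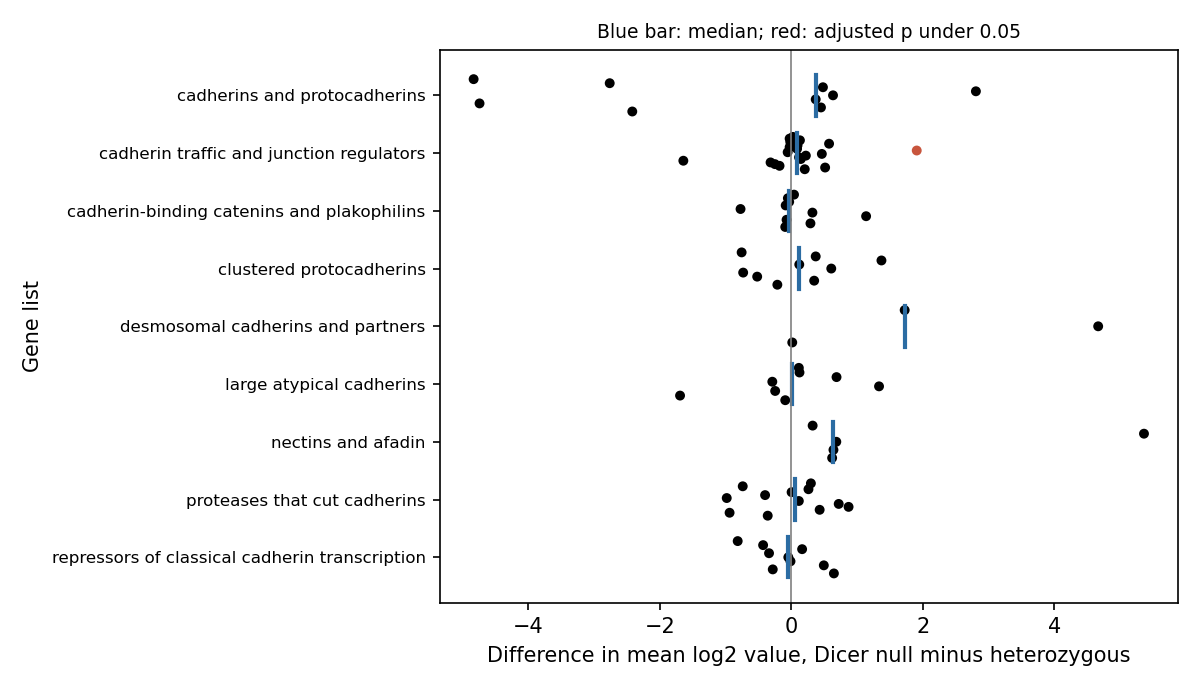
Difference in mean log2 value, Dicer null minus heterozygous (horizontal axis), of each tested gene in the lists (rows), with blue bars at the medians and called genes in red. The 9 members in the top row reach from -4.83 to 2.81, and Mgat3 at 1.91 is the only red point.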

How the data were processed

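RNA of 6 samples was measured on Affymetrix 3′ arrays. The submitters' processing notes name R (2.11.1) and GCRMA (2.20.0). The authors' deposited table holds log2 values, 0.40 to 14.18, for 45037 probe sets. GCRMA corrects background by probe sequence and equalises the arrays' distributions, so differences that begin under 3 depend on its background model. The settings used for it are not stated. Array number limits the precision.

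Gene names came from the platform's annotation (34945 with 1 symbol, 932 with several, 9160 with none), and all 31 members matched the GRCm38.p6 gene table. The 24385 probe sets with a mean of at least 3 were tested with limma 3.58.1 in R 4.3.3 (lmFit, eBayes, no block, two-sided), and p-values were adjusted by Benjamini-Hochberg over all of them at 0.05. Groups came from the sample titles. The fit was tested on simulated data. Members and lists were chosen with earlier results of these data known. The text gives arrays' values for members, and per list all called genes or the 2 with the smallest p. Alternatives covered the minimum, moderation, weights, scaling, the replicate block, probe set choice and each array left out. Figures used matplotlib 3.10.9.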

Additional observations from a re-analysis of the deposited data

How the results depend on the processing

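The count of called members, 0 higher and 0 lower by limma, was the same with another or no minimum mean, robust moderation, ordinary t statistics, centred arrays, quantile normalization, values under 3 set to 3, other probe set choices and, added after the data were seen, a mean of at least 3 in 1 group. An unadjusted p under 0.05 was reached by 3 of the 9 tested members, beside 24.0% of all tested genes. Over these alternatives it was 2 of 9 with ordinary t statistics, 4 of 18 with a minimum of 2 and 5 of 31 with no minimum. The others gave 3, and the share over all genes was not taken for the alternatives. Ordinary t statistics called 0 of all 24385 probe sets, so that setting could call no member. With trend 1 was lower (Pcdh20). With array weights 1 was higher (Cdh3) and 3 were lower (Cdh11, Cdh13 and Pcdh20), where 28.2% of all probe sets were called, against 3.10% without. Without 1 replicate, 0 to 1 were higher and 0 to 1 lower: Cdh3 without null replicate 1 and Pcdh20 without heterozygous replicate 3. These 2 fits called 0.849% and 3.51% of all probe sets, and the share over all fits without 1 replicate was 0.185% to 3.51%. The sign turned for Pcdh18 (-0.078) and Pcdh19 (-0.25) without heterozygous replicate 1 and for Pcdh7 (-0.77) without null replicate 2, with differences of -0.078 to 1.11, -0.25 to 0.82 and -0.77 to 1.12 over those fits. The cause was not tested.

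Between arrays of the same number, deviations from the group means had correlations of -0.06, 0.11 and 0.24. Heterozygous array 3 and null array 3 were each other's closest match, and the other numbers had no such match. With 3 arrays a group this cannot tell whether samples of the same number were paired. With the number as a replicate block 0 members were called higher and 0 lower by limma, with 3 at an unadjusted p under 0.05. The number of probe sets called was 116, against 756 without the block, and no member's call changed. Of 31 members, 18 were under 3 on every array, where a difference cannot be read.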

Other observations

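The genes that followed Cdh11 in the span over the 3 heterozygous arrays, singled out after their values were seen, were of several kinds. The amino acid transporter Slc6a15 was at 9.04, 9.42 and 0.85 on heterozygous arrays 1, 2 and 3, Snhg11 at 7.04, 2.79 and 10.05, Ctla2a at 10.55, 6.71 and 3.30, the secreted Dkk3 at 7.57, 5.02 and 12.10, and cardiac troponin Tnnt2 at 10.52, 10.18 and 3.54. Adgrl3, an adhesion receptor of the latrophilin family, was at 2.07, 3.31 and 9.02, and so highest on heterozygous array 3, as were Cdh11, Snhg11 and Dkk3. On null arrays it was at 2.95, 3.80 and 2.30.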
